A study of Ovis aries with 9 samples.

Results

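Collagens and laminins were followed in hypothalamus RNA of Dolang ewes across puberty. The members were all genes of the RefSeq annotation of the sheep genome build ARS-UI_Ramb_v3.0 whose symbol starts with COL and a number, or with LAMA, LAMB or LAMC and a number. This gave 54 members, 43 collagens and 11 laminins, of 21284 genes with coding RefSeq transcripts. They came from 154 transcripts on 19 chromosomes. The symbols LAMB2 and COL20A1, which the working lists also held, matched no gene and are not analysed here.

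The study sequenced poly(A) RNA of hypothalamic tissue from 9 healthy ewes under the same management, with 3 ewes per stage and 1 library per ewe. Prepuberty ewes (120 to 121 days old) were calm and refused mounting, puberty ewes (130 to 131 days old) showed their first estrus behaviour, and postpuberty ewes (150 to 151 days old) were calm again. Age and stage therefore rise together and cannot be told apart. No agent or genetic change was used to set the stages. Libraries are called by stage and animal, as in Puberty 2, and each animal belongs to 1 stage. Values are in FPKM, the fragments of a transcript per kilobase of its length, scaled to the number of mapped fragments of the library, summed over the coding RefSeq transcripts of a gene.

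Collagens are the main structural proteins of the extracellular matrix. In the brain, fibril-forming collagens of types I, III and V are made mostly by fibroblasts of the meninges and of the walls of larger vessels, whereas neurons and glia sit in a matrix with few fibrils. Basement membranes, thin sheets under endothelium, around mural cells and under the pial surface, are built from a laminin network and a type IV collagen network. A laminin is a trimer of an alpha, a beta and a gamma chain, and type IV collagen in most vessels consists of the chains of COL4A1 and COL4A2. In bulk tissue, fewer cells of a type and less RNA per cell cannot be told apart.

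The library Puberty 2 stood apart from the others. Its FPKM values summed to 599726, against 359588 to 398109 in the other 8 libraries, and only 42441 transcripts were above 0 there, against 67824 to 71787. Its Spearman correlation with any other library was 0.678 to 0.729, and that between the others was 0.849 to 0.954. Puberty 2 listed 7.43% of the genes tested at 0, against 0.365% to 1.06% elsewhere, and 7 of the 42 members that passed the filter on low values (16.7%), against at most 1 in any other library. The comparisons of stages are therefore given with and without it. The label of the tissue was checked against 15 neuropeptide and transcription factor genes of the hypothalamus, of which 8 passed the filter. SST reached 4.27 to 107 FPKM outside Puberty 2 and POMC 2.09 to 17.4 FPKM, whereas GNRH1 was listed at 0 in every library, OXT did not exceed 4.81 FPKM and NKX2-1 did not exceed 0.262 FPKM. Outside Puberty 2, POMC was highest in Postpuberty 1, Puberty 3 and Postpuberty 2, as was the pituitary gene PRL (199.5, 77.8 and 74.4 FPKM). CRH was at 118 FPKM in Prepuberty 1 and at most 7.14 FPKM elsewhere.

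The clearest feature of the members was a large difference between libraries of the same stage in the type I and type III collagens. In the order of animals 1, 2 and 3, COL1A1, one chain of type I collagen (chr11:36191118-36208942), had FPKM values of 29.3, 3.66 and 3.02 at prepuberty, 3.18, 2.78 and 30.2 at puberty, and 39.6, 2.11 and 15.7 at postpuberty. COL1A2, its partner chain (chr4:12552707-12589620), had FPKM values of 51.8, 7.93 and 7.83 at prepuberty, 6.55, 4.51 and 40.8 at puberty, and 66.9, 4.51 and 29.4 at postpuberty. COL3A1, the single chain of type III collagen (chr2:120362888-120403111), had FPKM values of 8.7, 3.23 and 3.14 at prepuberty, 2.07, 1.88 and 27.5 at puberty, and 16.7, 1.77 and 5.61 at postpuberty. In each of the 3 genes the 4 highest values were those of Prepuberty 1, Puberty 3, Postpuberty 1 and Postpuberty 3, so every stage held at least 1 high and 1 low library and all stages overlapped. Within a stage, the highest library exceeded the lowest, among the 8 libraries without Puberty 2, 9.70-fold, 9.50-fold and 18.8-fold for COL1A1 at prepuberty, puberty and postpuberty. The same ratios were 6.62, 6.23 and 14.8 for COL1A2, and 2.77, 13.3 and 9.40 for COL3A1. The summed FPKM of fibroblast markers and of mural markers, described with the other marker lists, was also highest in these 4 libraries. So was that of astrocyte markers outside Puberty 2, but GFAP made up most of it, and SLC1A2 and SLC1A3 were lowest there. The part of these cell types in the result was not tested.

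Type V collagen, which sets the diameter of type I fibrils, was measured through its 3 chains. COL5A1 had FPKM values of 1.78, 0.298 and 0.822 at prepuberty, 0.316, 0 and 1.76 at puberty, and 2.02, 0.416 and 0.92 at postpuberty. Its 4 highest libraries were those of COL1A1. COL5A2, which lies 16742 bases from COL3A1 on chromosome 2 (chr2:120197168-120346145), had FPKM values of 6.02, 5.48 and 6.17 at prepuberty, 4.59, 1.49 and 7.26 at puberty, and 9.73, 5.07 and 4.7 at postpuberty. Its range outside Puberty 2 was 2.12-fold, the narrowest among the 5 genes COL1A1, COL1A2, COL3A1, COL5A1 and COL5A2. The third type V chain, COL5A3, stayed within 6.83 to 13.3 FPKM in the same 8 libraries.

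**Figure D1:**
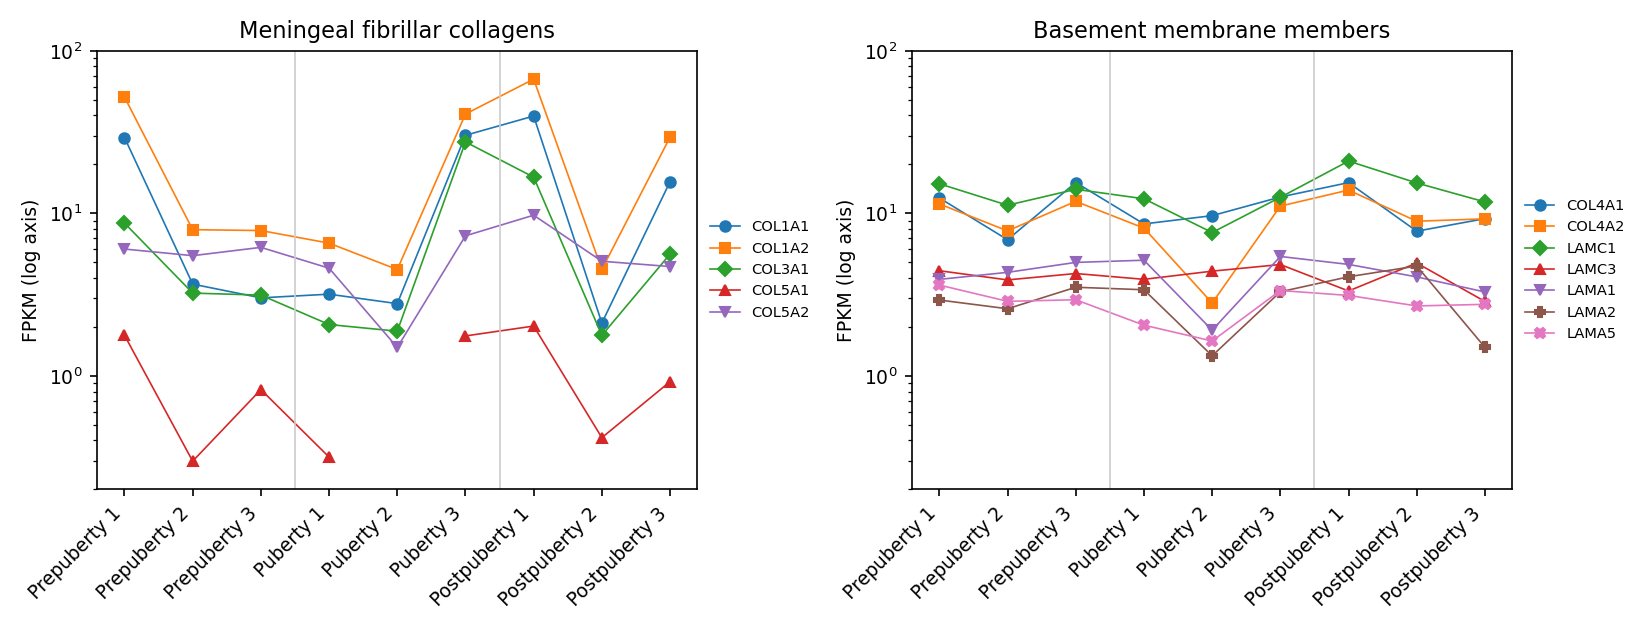
FPKM of 5 fibrillar collagens (left) and of 7 basement membrane members (right) in each of the 9 libraries, on a log axis from 0.2 to 100, with each marker 1 animal and thin lines joining the values of a gene. COL1A1, COL1A2 and COL3A1 peak in Prepuberty 1, Puberty 3, Postpuberty 1 and Postpuberty 3, LAMC1 stays between 7.61 and 21.0 FPKM, and the value of 0 for COL5A1 in Puberty 2 is not drawn.

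Outside Puberty 2, the basement membrane chains COL4A1, COL4A2, LAMC1 and LAMC3 spanned smaller ranges than COL1A1, COL1A2 and COL3A1. COL4A1 had FPKM values of 12.4, 6.87 and 15.5 at prepuberty, 8.6, 9.67 and 12.6 at puberty, and 15.4, 7.76 and 9.26 at postpuberty, a 2.25-fold range outside Puberty 2. COL4A2 (chr10:84369961-84527930), whose gene starts 127 bases from the end of COL4A1 (chr10:84241592-84369833), had FPKM values of 11.4, 7.79 and 11.8 at prepuberty, 8.1, 2.8 and 11.1 at puberty, and 13.9, 8.93 and 9.24 at postpuberty. Its range outside Puberty 2 was 1.78-fold, but Puberty 2 was at 0.276 of the median of the other libraries, while COL4A1 was there at 0.892 of it. LAMC1, the gamma chain of most laminins and the most abundant laminin gene here (chr12:63502751-63624368), had FPKM values of 15.2, 11.2 and 14.0 at prepuberty, 12.3, 7.61 and 12.5 at puberty, and 21.0, 15.4 and 11.7 at postpuberty. LAMC3, a gamma chain known from pial and retinal basement membranes, had FPKM values of 4.43, 3.89 and 4.26 at prepuberty, 3.92, 4.4 and 4.84 at puberty, and 3.32, 4.94 and 2.87 at postpuberty. The libraries of the 3 stages overlapped for each of these 4 genes.

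Among the alpha chains, LAMA1, known from the pial basement membrane, had FPKM values of 3.92, 4.33 and 4.98 at prepuberty, 5.14, 1.91 and 5.42 at puberty, and 4.84, 4.06 and 3.28 at postpuberty. LAMA2, a chain of astrocytes, fibroblasts and mural cells around vessels, had FPKM values of 2.92, 2.59 and 3.51 at prepuberty, 3.38, 1.33 and 3.29 at puberty, and 4.07, 4.74 and 1.5 at postpuberty. LAMA5, made by endothelium, had FPKM values of 3.62, 2.87 and 2.94 at prepuberty, 2.05, 1.64 and 3.35 at puberty, and 3.12, 2.69 and 2.75 at postpuberty. These chains varied 1.65-fold, 3.16-fold and 1.76-fold outside Puberty 2, and each was lower in Puberty 2 than in any other library. LAMA3, a chain of epithelial laminin, stayed below the filter, with FPKM values of 0.434, 0.503 and 0.497 at prepuberty, 0.446, 0.0645 and 0.288 at puberty, and 0.329, 0.191 and 0.407 at postpuberty. LAMA4, the other endothelial alpha chain (chr8:25501364-25646050), had FPKM values of 0.552, 0.28 and 0.923 at prepuberty, 0.37, 0.604 and 1.12 at puberty, and 2.12, 1.7 and 2.15 at postpuberty. Each postpuberty library was above each prepuberty and puberty library for LAMA4.

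The beta chains were measured less evenly. LAMB1, the beta chain of most embryonic and vascular laminins (chr4:50480089-50557088), had FPKM values of 1.89, 2.19 and 0.00577 at prepuberty, 1.05, 0.359 and 6.36 at puberty, and 5.51, 1.24 and 3.14 at postpuberty. Its value in Prepuberty 3 was near 0 although LAMC1, with which it forms a trimer, was at 14.0 FPKM there. An FPKM at or near 0 of a RefSeq transcript can be a failed estimate, and fragments that StringTie gave to newly assembled transcripts of the same locus are not in these sums. LAMB3, a beta chain of epithelial laminin with 10 coding transcripts, had FPKM values of 1.82, 1.72 and 0.563 at prepuberty, 1.02, 0 and 3.16 at puberty, and 2.98, 2.69 and 1.61 at postpuberty. LAMB4 did not pass the filter, with a highest value of 0.0315 FPKM.

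The multiplexins, collagens of the outer face of basement membranes, had another order of libraries than COL4A1. COL18A1, the source of endostatin (chr1:265929812-266021799), had FPKM values of 16.9, 2.93 and 4.57 at prepuberty, 3.84, 6.59 and 6.94 at puberty, and 16.6, 3.44 and 10.0 at postpuberty. Its 4 highest values outside Puberty 2 were in the same libraries as those of COL1A1, and it spanned 5.77-fold. COL15A1, with 9 coding transcripts, had FPKM values of 0.929, 0.30 and 0.0302 at prepuberty, 0.357, 0.951 and 0.40 at puberty, and 0.264, 0.212 and 0.139 at postpuberty and passed the filter only because of Puberty 2. The minor type IV chains were lower. COL4A3 and COL4A4, whose genes are 145 bases apart, stayed within 0.354 to 1.56 and 0.594 to 1.82 FPKM outside Puberty 2. COL4A5 and COL4A6, which overlap by 598 bases on chromosome X, stayed within 0.88 to 3.95 and 0.336 to 3.73 FPKM in the same 8 libraries. The highest value of each was in Puberty 3, and the 4 highest libraries of each were those of COL1A1. In Puberty 2 they were at 0.353 and 0.186 FPKM. The sources used here do not state that strand was used in the assignment of reads, so values of overlapping or adjoining genes may share fragments.

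The 2 sets were compared by their summed FPKM. The meningeal fibrillar set (COL1A1, COL1A2, COL3A1, COL5A1 and COL5A2) summed to 97.6, 20.6 and 21.0 at prepuberty, 16.7, 10.7 and 107 at puberty, and 135, 13.9 and 56.3 at postpuberty. Its stage means were 46.4 ± 44.4 at prepuberty, 44.9 ± 54.2 at puberty, and 68.4 ± 61.4 at postpuberty (SD, n = 3 each). The basement membrane set of 19 genes (type IV collagens, multiplexins and laminins) summed to 80.6, 50.4 and 66.7 at prepuberty, 54.9, 38.9 and 82.7 at puberty, and 101, 62.5 and 62.6 at postpuberty. Its stage means were 65.9 ± 15.2 at prepuberty, 58.8 ± 22.2 at puberty, and 75.3 ± 22.0 at postpuberty (SD, n = 3 each). Outside Puberty 2 the fibrillar sum spanned 9.72-fold and the basement membrane sum 2.0-fold. With COL5A3, which the set leaves out, the fibrillar sum ran from 23.2 to 148 FPKM in the same libraries, against 13.9 to 135 FPKM without it. The ratio of the fibrillar to the basement membrane sum was 1.21, 0.409 and 0.314 at prepuberty, 0.304, 0.274 and 1.3 at puberty, and 1.34, 0.222 and 0.899 at postpuberty. Its stage means were 0.645 ± 0.492 at prepuberty, 0.626 ± 0.583 at puberty, and 0.82 ± 0.563 at postpuberty (SD, n = 3 each), so the stage means differed by less than the SD within any stage. Without Puberty 2, the puberty means became 62.1 for the fibrillar sum, 68.8 for the basement membrane sum and 0.802 for the ratio. Single libraries set the other means as well: the fibrillar mean was 20.8 without Prepuberty 1, 13.7 without Puberty 3 and 35.1 without Postpuberty 1, and the ratio was 0.362, 0.289 and 0.560. No test was made on these sums, since the members were chosen with earlier results of the data known.

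**Figure D2:**
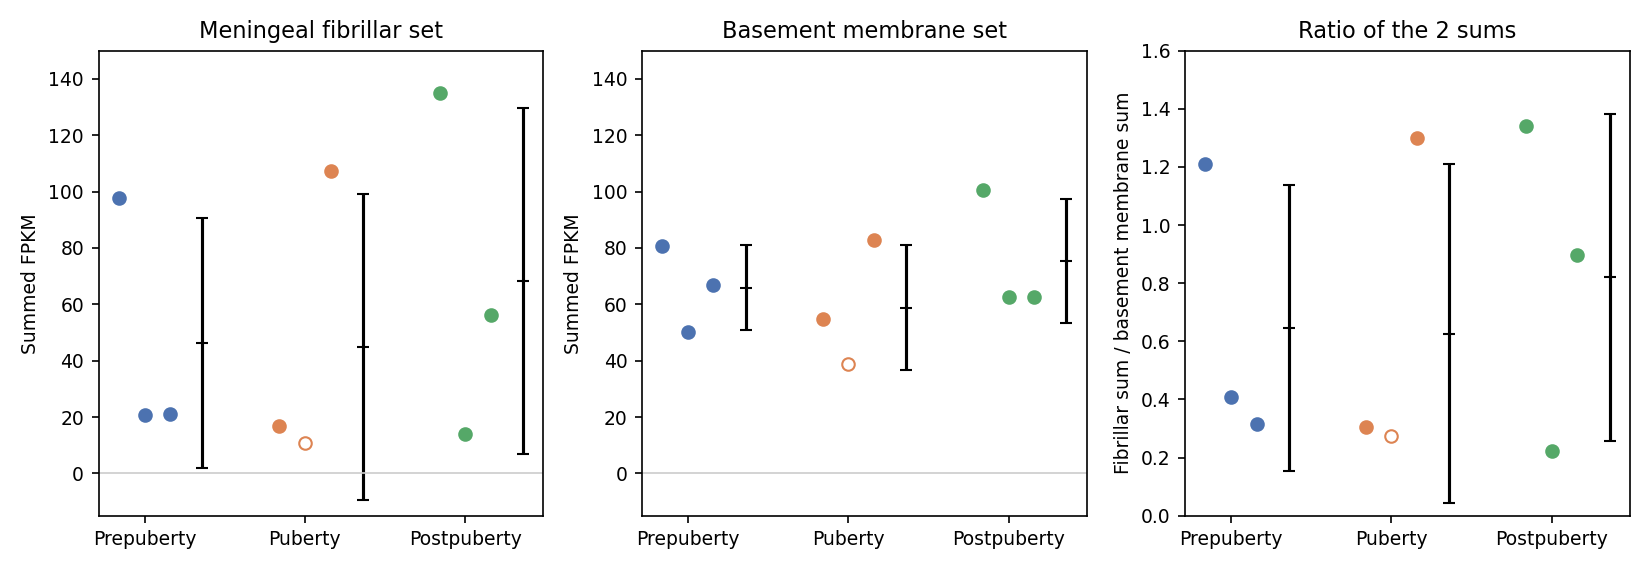
Summed FPKM of the 5 meningeal fibrillar genes, summed FPKM of the 19 basement membrane genes, and the ratio of the sums, by stage. Each point is 1 animal (open point: Puberty 2), the bar beside the points is mean ± SD of the 3 libraries, and 1 or 2 animals of every stage lie above a ratio of 0.8 while the others lie below 0.5.

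The spread between libraries, 1 per animal, was put on 1 scale as the SD of log2(FPKM + 1) within stages over the 8 libraries without Puberty 2. COL1A1 had an SD of 1.82, COL1A2 of 1.69 and COL3A1 of 1.39, which placed them at percentiles 99.7, 99.5 and 98.8 of the 14209 genes tested without that library. The median SD was 1.39 over the 5 meningeal fibrillar genes, 0.31 over the 15 basement membrane genes that passed the filter and 0.29 over all genes tested. COL5A3, the third type V chain, is not in the fibrillar set and had an SD of 0.33. COL4A1 had an SD of 0.48, COL4A2 of 0.31, LAMC1 of 0.28 and LAMA1 of 0.17. COL18A1 (0.99) and LAMB1 (0.96) were the basement membrane genes with the largest SD. Of the 41 members tested without Puberty 2, 17 (41.5%) spanned at least 5-fold over the 8 libraries or were at 0 in some of them, against 21.0% of all genes tested. They included 4 of the 5 meningeal fibrillar genes (80%) and 5 of the 15 basement membrane genes (33.3%), which were COL4A6, COL18A1, LAMA4, LAMB1 and LAMB3. Of the same 41 members, 14 were highest in Postpuberty 1 (34.1%, against 19.2% of all genes) and 11 in Puberty 3 (26.8%, against 11.01%), and 16 were lowest in Prepuberty 2 (39.0%, against 17.0%). Only 3 were highest in Prepuberty 1 (7.32%, against 15.5%) and 5 in Postpuberty 3 (12.2%, against 13.4%). These shares are descriptive, and genes with a low mean have a small SD on this scale because of the added 1.

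**Figure D3:**
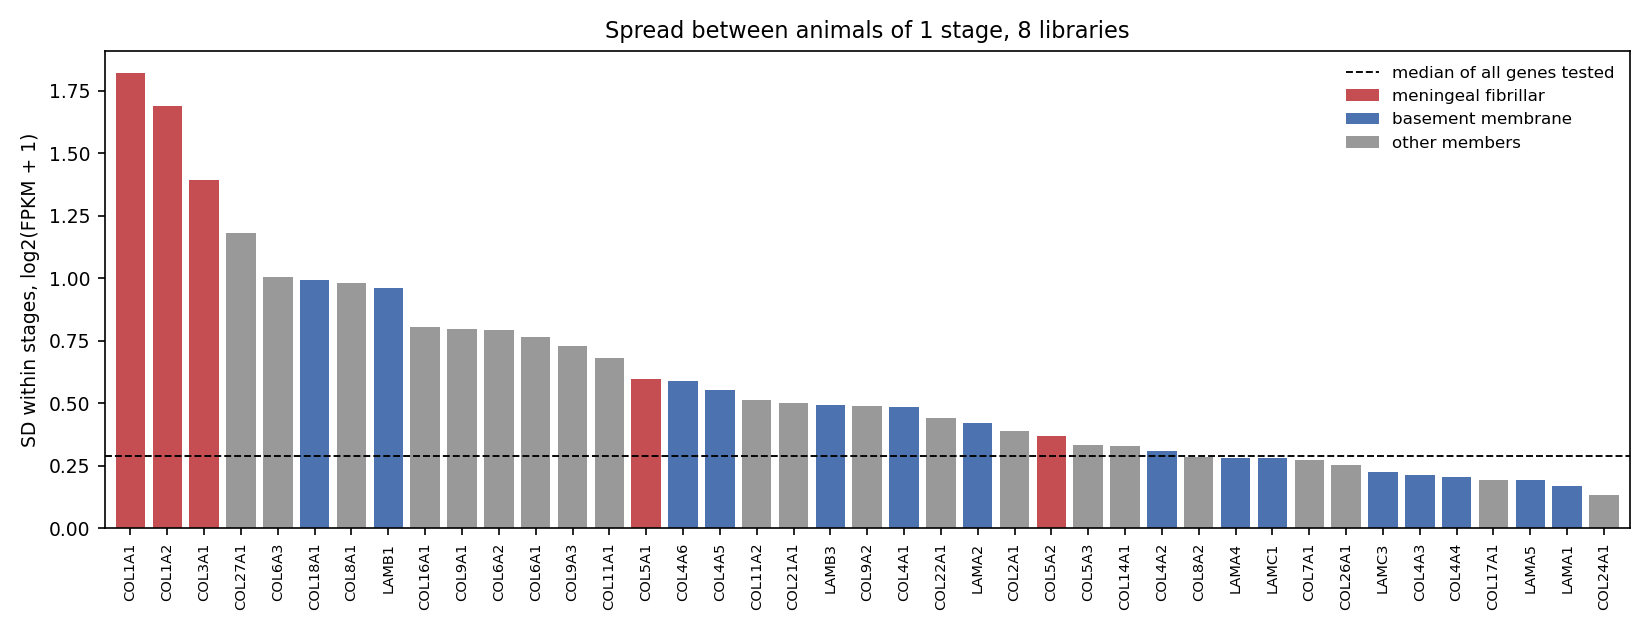
SD within stages of log2(FPKM + 1) for the 41 members tested in the 8 libraries without Puberty 2, in decreasing order, with bars starting at 0. Red bars are meningeal fibrillar genes, blue bars basement membrane genes and grey bars other members, and the dashed line is the median of all genes tested (0.29), with COL1A1, COL1A2 and COL3A1 (1.82, 1.69 and 1.39) at the left end.

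Type VI collagen, which forms beaded filaments between fibrils and basement membranes, is built from chains of COL6A1, COL6A2 and COL6A3. COL6A2 (chr1:266543658-266575779) had FPKM values of 14.0, 5.47 and 6.51 at prepuberty, 9.55, 5.45 and 16.3 at puberty, and 21.7, 4.61 and 11.3 at postpuberty, and its 4 highest libraries were those of COL1A1. COL6A3 had FPKM values of 3.47, 0.942 and 7.24 at prepuberty, 1.8, 0.277 and 4.6 at puberty, and 7.36, 0.852 and 2.54 at postpuberty. COL6A1, 115169 bases from COL6A2 on chromosome 1, had FPKM values of 2.13, 0.00068 and 0.10 at prepuberty, 1.58, 0 and 0.0446 at puberty, and 0.00426, 0 and 0.738 at postpuberty. The level of COL6A1 was thus at or near 0 in Puberty 3 and Postpuberty 1, where both partner chains were above 4 FPKM. COL6A5 and COL6A6 did not exceed 0.0824 and 0.0804 FPKM.

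Type IX collagen, a fibril-associated collagen known from cartilage and the eye, was among the most abundant members. COL9A3 had the highest mean of all members, with FPKM values of 32.9, 13.5 and 42.9 at prepuberty, 32.1, 0 and 25.7 at puberty, and 35.7, 29.5 and 12.3 at postpuberty. The value of 0 in Puberty 2 contrasts with 12.3 FPKM or more in every other library. COL9A2 had FPKM values of 9.6, 5.28 and 15.9 at prepuberty, 14.7, 11.1 and 9.74 at puberty, and 14.4, 11.9 and 12.7 at postpuberty, and COL9A1 had FPKM values of 2.19, 3.92 and 4.55 at prepuberty, 3.7, 9.09 and 0.138 at puberty, and 6.65, 2.32 and 3.5 at postpuberty. COL9A1 was highest in Puberty 2, at 2.52 times the median of the others, and lowest in Puberty 3. The 5 most abundant members by mean over 9 libraries were COL9A3, COL1A2, COL1A1, LAMC1 and COL9A2.

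Among the other fibril-associated collagens, COL16A1, found near fibrils and basement membranes, had FPKM values of 9.57, 2.85 and 9.19 at prepuberty, 10.4, 0 and 3.61 at puberty, and 11.5, 4.91 and 14.1 at postpuberty. COL14A1, which binds to the surface of type I fibrils, had FPKM values of 2.7, 1.94 and 1.63 at prepuberty, 1.62, 1.08 and 2.18 at puberty, and 4.59, 2.54 and 2.2 at postpuberty, and each postpuberty library was above each puberty library. COL21A1 had FPKM values of 0.408, 0 and 0.348 at prepuberty, 0.707, 0 and 1.48 at puberty, and 1.35, 0.0436 and 0 at postpuberty, and COL22A1, known from tissue junctions, had FPKM values of 1.58, 0.492 and 1.97 at prepuberty, 3.35, 1.79 and 1.86 at puberty, and 2.62, 1.52 and 1.33 at postpuberty. Each of these but COL14A1 had overlapping stages. COL12A1 and COL19A1 did not pass the filter, with at most 0.751 and 0.333 FPKM.

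The fibrillar collagens of cartilage type were also measured. COL11A2 had FPKM values of 9.11, 3.98 and 6.42 at prepuberty, 5.63, 9.25 and 5.77 at puberty, and 11.6, 13.4 and 5.36 at postpuberty, and COL11A1 had FPKM values of 1.14, 0.653 and 5.36 at prepuberty, 1.24, 0 and 1.26 at puberty, and 1.12, 2.24 and 1.52 at postpuberty, so that Prepuberty 3 exceeded all other libraries for COL11A1. COL2A1 had FPKM values of 1.2, 1.2 and 1.86 at prepuberty, 1.13, 1.75 and 1.22 at puberty, and 1.62, 0.479 and 2.18 at postpuberty. In Puberty 2, COL11A2 was at 1.52 and COL2A1 at 1.44 times the median of the others, the largest ratios after COL9A1 among members with a mean of at least 0.5 FPKM. COL11A1, COL16A1 and COL5A1, all at 0 in Puberty 2, were among the lowest, tied with COL6A1, COL9A3 and LAMB3, also listed at 0 there. COL27A1, a fibrillar collagen of developing cartilage, had FPKM values of 0.264, 0.368 and 2.23 at prepuberty, 4.74, 1.99 and 4.98 at puberty, and 12.8, 0.947 and 0.64 at postpuberty, with Postpuberty 1 far above its stage partners. COL24A1 stayed within 0.332 to 0.84 FPKM outside Puberty 2.

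The remaining members were low. The short-chain collagen COL8A1, made by vessel walls and corneal endothelium, stayed within 0.873 to 6.65 FPKM outside Puberty 2, and its 4 highest libraries were those of COL1A1. COL8A2 stayed within 0.286 to 1.17, the anchoring fibril collagen COL7A1 within 0.518 to 1.56, the hemidesmosome collagen COL17A1 within 0.412 to 0.994 and COL26A1 within 0.328 to 1.27 FPKM in the same 8 libraries. In Puberty 2, COL8A2 was at 0.012 and COL17A1 at 0.245 FPKM. The others that did not pass the filter were COL10A1, COL13A1, COL23A1, COL25A1 and COL28A1, which reached at most 0.0534, 0.374, 0.349, 0.126 and 0.363 FPKM. In all, 12 members did not pass. Over all 54 members, 9 (16.7%) had the 4 highest libraries of COL1A1 outside Puberty 2, COL1A1 included, which does so by definition. Over the 14209 genes tested without Puberty 2 the share was 11.4%. The bases differ, since all 9 were among the 41 members tested in the same way.

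The stages were tested with limma, fitted to log2(FPKM + 1) of 14238 genes whose mean reached 0.5 FPKM in a stage, with Benjamini-Hochberg adjustment over all of them. A call needed an adjusted p below 0.05 and a log2 fold change of 1 or more in either direction. Differences are of the stage named first minus the second, and are smaller than the log2 ratio of FPKM for low genes. In each of the 3 comparisons, 0 of the 42 members and 0 of all genes tested (0%) were called, with all 9 libraries and also without Puberty 2 (0% of 14209 genes in each). On simulated data with 200 of 14238 genes changed by 2 on the log2 scale between prepuberty and postpuberty, limma called 101 of the 200 with the spread of the 9 libraries and 156 with that of the 8, with 6 and 13 false calls. The 200 were drawn from genes with a mean log2(FPKM + 1) of at least 2, and the noise of each gene was independent. Members below that mean, such as LAMA4 (1.03), COL27A1 (1.63) and LAMB1 (1.63) over the 8 libraries, are not covered by these counts. The median log2 fold change of all genes was 0.14 for prepuberty versus puberty and -0.19 for puberty versus postpuberty with 9 libraries, and -0.02 and -0.03 without Puberty 2, so the members are read against these medians.

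From prepuberty to puberty, the comparison that brackets the first estrus, no collagen or laminin had an unadjusted limma p below 0.05 (0 of 42 members, against 1.82% of all genes). The smallest p of a member belonged to COL27A1, whose log2 fold change was -1.40 ± 0.77 (SE, limma, Benjamini-Hochberg adjusted p = 0.838). Next came COL22A1 (-0.53 ± 0.34), COL11A1 (0.72 ± 0.52) and COL4A2 (0.58 ± 0.42), with the same adjusted p in limma. The difference for COL22A1 was -0.24 without Prepuberty 2 and -0.33 without Puberty 1. That for COL11A1 was 0.13 without Prepuberty 3 and 1.10 without Prepuberty 2, and that for COL4A2 was 0.93 without Puberty 3. With library weights the difference was 1.29 for COL11A1 and 0.32 for COL4A2. Without Puberty 2, COL4A2 had a difference of 0.09 ± 0.26, COL11A1 of 0.33 ± 0.53, COL22A1 of -0.65 ± 0.36 and COL27A1 of -1.72 ± 0.90. The members' median log2 fold change was 0.09 with 9 libraries, against 0.14 for all genes, and -0.12 without Puberty 2, against -0.02 for all genes. It was -0.08 without Prepuberty 1 (0.12 for all genes), 0.30 without Puberty 3 (0.25) and near 0 without Puberty 1 (0.20), with 20 members above 0 and 21 below. Upper quartile scaling gave a members' median of 0.01 (0.08 for all genes), equal totals 0.16 (0.26) and a filter at 1 FPKM 0.14 (0.16). The most abundant transcript alone gave 0.02 (0.16), and library weights gave -0.03 (-0.07). Without Puberty 2, COL4A3 (-0.53 ± 0.21) and COL4A4 (-0.50 ± 0.21) had unadjusted limma p-values below 0.05, 2 of 41 members against 1.66% of all genes, and both had an adjusted p of 1.

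Separation of the libraries was read for the same comparison. No member had all 3 prepuberty libraries above or below all 3 puberty libraries (0 of 42 in both directions), against 2.84% of all genes higher and 2.32% lower at prepuberty. An exact permutation test of 3 against 3 libraries cannot give a two-sided p below 0.1. Without Puberty 2, 0 of 41 members were higher at prepuberty, against 4.55% of all genes. Lower at prepuberty were 6 of 41 (COL17A1, COL21A1, COL27A1, COL4A3, COL4A4 and LAMA1), against 7.16% of all genes. COL21A1 passed the filter only through its puberty mean (1.10 FPKM, against 0.252 at prepuberty and 0.466 at postpuberty).

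From puberty to postpuberty, LAMA4 was the single member with an unadjusted limma p below 0.05 (1 of 42, against 2.14% of all genes). Its mean was 0.697 FPKM at puberty and 1.99 FPKM at postpuberty, a log2 fold change of -0.84 ± 0.25 (SE, limma, adjusted p = 0.780). Without Puberty 2 it was -0.81 ± 0.26 (limma, adjusted p = 1), again 1 of 41 members with such a p, against 2.11% of all genes. The members with the next smallest p were COL14A1 (-0.62 ± 0.30), COL16A1 (-1.47 ± 0.83) and LAMC1 (-0.52 ± 0.30), each with an adjusted p of 0.780 in limma. COL14A1 was at -0.38 without Postpuberty 1 and at -0.06 with its most abundant transcript alone. Without Puberty 2, COL16A1 had -0.51 ± 0.62 and LAMC1 -0.31 ± 0.25. COL16A1 was at -2.27 without Puberty 1, and LAMC1 at -0.32 without Postpuberty 1. The members' median was -0.24 with 9 libraries, against -0.19 for all genes, and -0.08 without Puberty 2, against -0.03. It was -0.07 without Postpuberty 1 (-0.18 for all genes), -0.37 without Postpuberty 2 (-0.21) and -0.49 without Puberty 3 (-0.30). With 0.1 in place of 1 added to FPKM it was -0.52 (-0.27), and with a filter at 1 FPKM -0.44 (-0.21). Scaling to equal totals gave -0.40 (-0.33), and library weights gave -0.06 (-0.04). No overlap between stages was seen for COL15A1 (higher at puberty, 1 of 42 against 2.07% of all genes, and past the filter only through its puberty value) and for COL14A1, COL26A1 and LAMA4 (lower at puberty, 3 of 42 against 5.25%). The nearest libraries of COL14A1 were 2.18 FPKM in Puberty 3 and 2.20 FPKM in Postpuberty 3. Without Puberty 2, the same 3 members were lower at puberty (3 of 41 against 7.90% of all genes), and COL24A1, COL4A3, COL4A4 and LAMA1 were higher (4 of 41 against 6.19%). COL24A1 passed the filter only through puberty (mean 0.718 FPKM, against 0.483 at prepuberty and 0.478 at postpuberty).

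Between prepuberty and postpuberty, the stages at the ends of the series, LAMA4 again had the smallest p. Its means were 0.585 and 1.99 FPKM, with a log2 fold change of -0.93 ± 0.25 (SE, limma, adjusted p = 1). It was the 1 member of 42 with an unadjusted limma p below 0.05, against 0.815% of all genes, and 1 of 41 without Puberty 2, against 1.87%. COL11A2 (-0.54 ± 0.40), LAMB1 (-0.90 ± 0.70) and COL27A1 (-0.99 ± 0.77) followed, each with an adjusted p of 1 in limma. The difference for COL27A1 was -0.01 without Postpuberty 1, -1.55 without Postpuberty 3 and -0.34 with its most abundant transcript alone. That for COL11A2 was -0.27 without Prepuberty 2, -0.31 without Postpuberty 2, -0.90 without Postpuberty 3 and -0.20 with its most abundant transcript alone. That for LAMB1 was -0.37 without Prepuberty 3 and -0.53 without Postpuberty 1. The fibrillar genes had wide errors, with log2 fold changes of -0.63 ± 1.17 for COL1A1 and -0.48 ± 1.11 for COL1A2 (limma, adjusted p = 1 for both). Without Postpuberty 1 these differences were 0.20 and 0.31, of the opposite sign, and without Postpuberty 2 they were -1.65 and -1.50. Leaving out Prepuberty 1, 2 or 3 moved them to -1.57, -0.22 or -0.11 for COL1A1 and to -1.34, -0.06 or -0.05 for COL1A2, and without Postpuberty 3 COL1A2 was at -0.27. The members' median was -0.13, against -0.05 for all genes. Without Postpuberty 1 it was 0.07, with 25 members above 0 and 17 below, against -0.05 for all genes, and without Prepuberty 2 it was -0.04, against -0.07. It was -0.22 without Prepuberty 1 (-0.06 for all genes), -0.32 without Postpuberty 2 (-0.06) and -0.22 without Postpuberty 3 (-0.04). With a filter at 1 FPKM it was -0.27 (-0.05), and with 0.1 in place of 1 added to FPKM -0.22 (-0.06). The most abundant transcript alone gave -0.20 (-0.04), and library weights gave -0.05 (-0.11). No member was higher at prepuberty without overlap (0 of 42 against 1.40% of all genes), and LAMA4 was lower (1 of 42 against 3.17%). The LAMA4 comparisons share the postpuberty libraries, so they are not independent of each other.

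**Figure D4:**
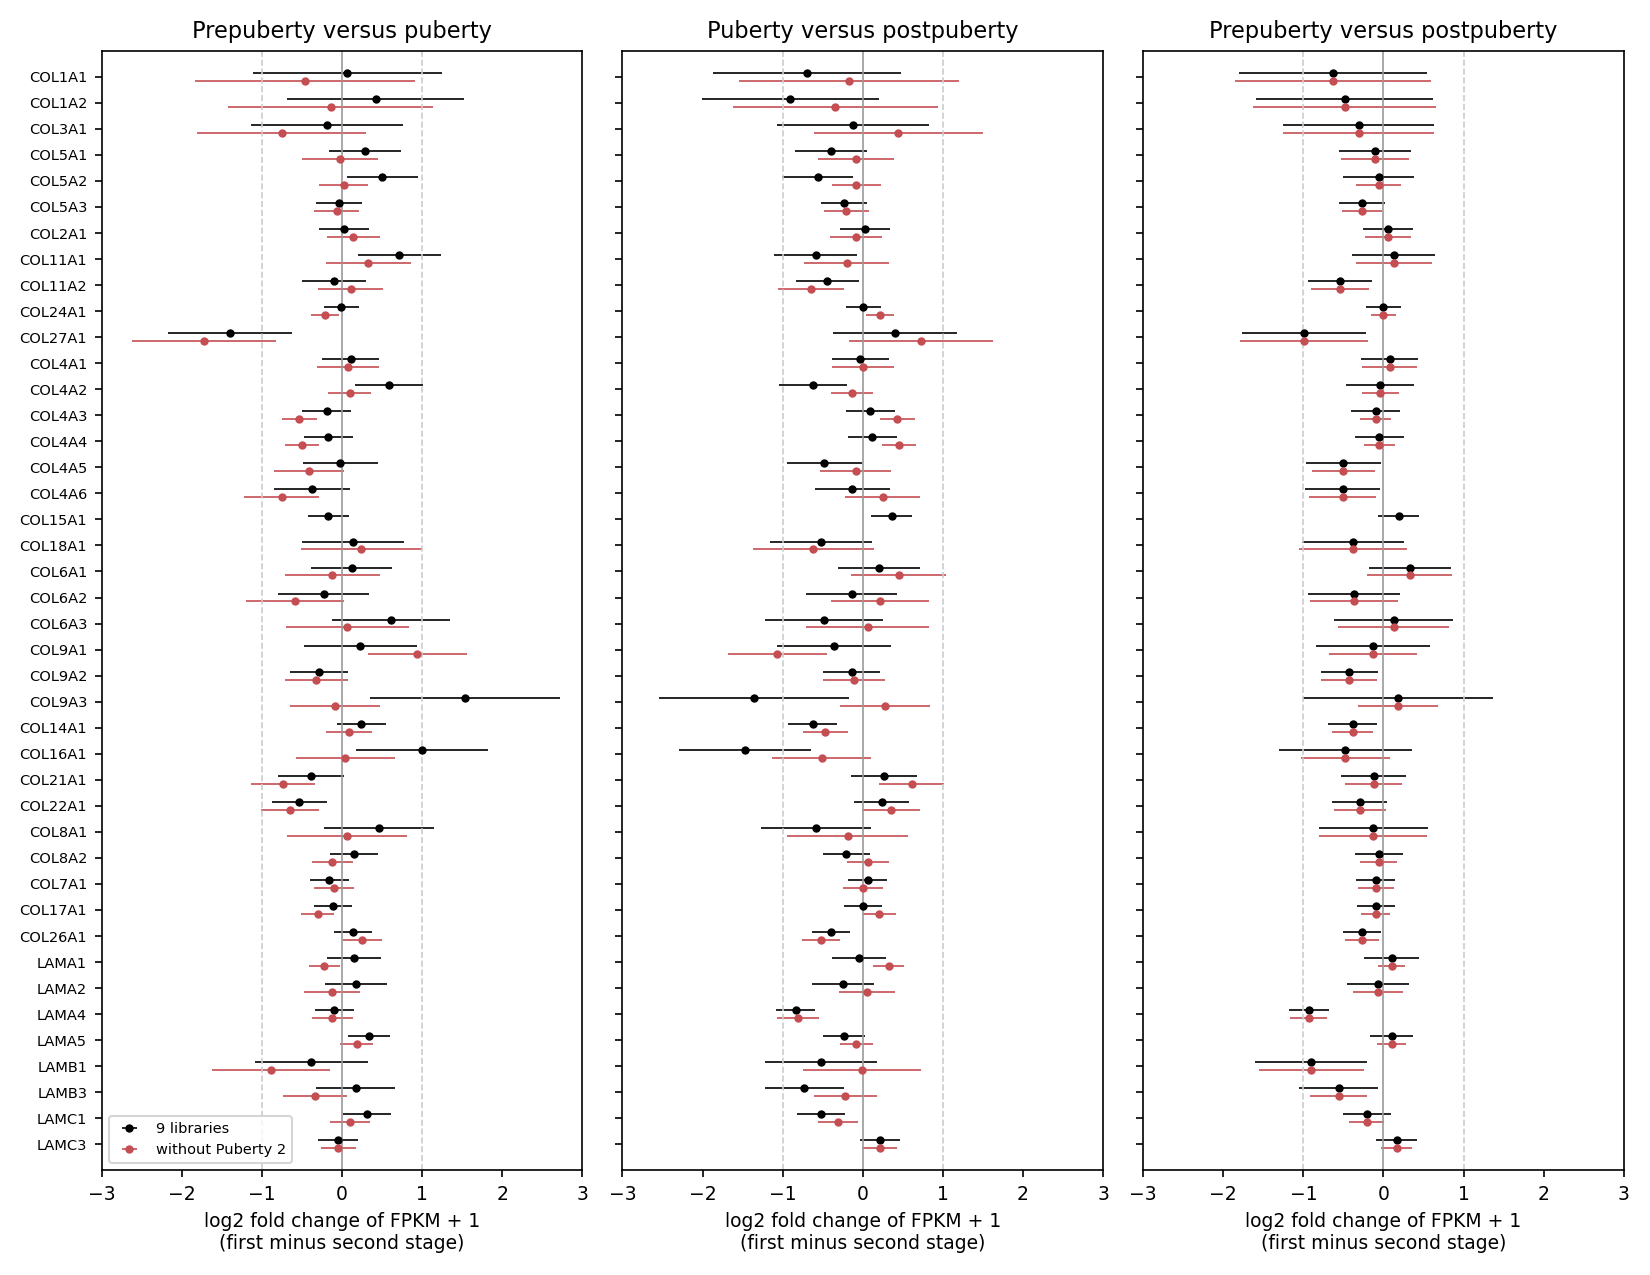
limma log2 fold changes of FPKM + 1 (first minus second stage) with their SE for the 42 members that passed the filter, in the 3 comparisons, from all 9 libraries (black) and without Puberty 2 (red), with dashed lines at -1 and 1. COL9A3 moves from 1.54 to -0.09 between prepuberty and puberty when Puberty 2 is left out, while LAMA4 lies near -0.8 to -0.9 against postpuberty in both fits, and COL15A1 was not tested without Puberty 2.

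Partner chains were compared across the 8 libraries without Puberty 2. Of the 10 gene pairs listed for this, the 4 with COL1A1 were not given a correlation, because COL1A1 lay in 2 separate ranges, 2.11 to 3.66 and 15.7 to 39.6 FPKM, with 4 libraries each. The adjustment was over the other 6 pairs, with two-sided exact permutation p-values. COL4A1 and COL4A2 were closely related (Pearson's r = 0.952, exact p = 0.00122, adjusted p = 0.00729, Spearman's rho = 0.929, exact p = 0.00223, adjusted p = 0.0134, n = 8). Without the 2 libraries farthest from the median of COL4A1, r was 0.944, and with stage means subtracted it was 0.976. With Puberty 2 included, r was 0.509. COL5A1 and COL5A2 gave r = 0.774 (exact p = 0.0164, adjusted p = 0.0328), but rho = 0.667 did not pass (exact p = 0.0831, adjusted p = 0.166), and r without the 2 farthest libraries was 0.728. Leaving out Puberty 1 (r = 0.724) or Postpuberty 1 (r = 0.706) brought the exact p of this pair above 0.05.

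Of the other pairs of chains tested, neither COL6A1 with COL6A2 nor LAMB1 with LAMC1 passed. COL6A1 and COL6A2 gave r = 0.229 and rho = 0.381 (exact p = 0.566 and 0.36, adjusted p = 0.666 and 0.467, n = 8), and r without the 2 farthest libraries was 0.136. LAMB1 and LAMC1 gave r = 0.179 and rho = -0.02 (exact p = 0.666 and 0.977, adjusted p = 0.666 and 0.977, n = 8), and r without the 2 farthest libraries was -0.41. COL4A1 and CLDN5, a tight junction gene of brain endothelium, gave r = 0.859 (exact p = 0.00900, adjusted p = 0.0270), while rho = 0.714 did not pass (exact p = 0.0576, adjusted p = 0.166). For this pair r was 0.904 without the 2 farthest libraries and 0.182 with Puberty 2, where CLDN5 was at 624 FPKM against 54.7 to 114 FPKM elsewhere. COL4A1 and PDGFRB, a receptor of pericytes, gave r = 0.434 and rho = 0.357 (exact p = 0.294 and 0.389, adjusted p = 0.441 and 0.467, n = 8), and r without the 2 farthest libraries was -0.14. The 8 libraries come from 3 stages and 1 pipeline, and genes next to each other may share fragments.

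Marker lists of the cells that could supply matrix were read beside these values. Of 14 genes of meningeal and perivascular fibroblasts, 13 were measured and 12 passed the filter. Their summed FPKM was 108, 22.6 and 24.3 at prepuberty, 24.8, 13.5 and 80.2 at puberty, and 112, 25.7 and 48.5 at postpuberty, highest in the libraries where COL1A1 was highest. DCN, a proteoglycan that coats fibrils, had FPKM values of 30.7, 6.43 and 4.92 at prepuberty, 5.48, 2.21 and 24.8 at puberty, and 27.4, 4.53 and 15.6 at postpuberty. FMOD, another fibril-binding proteoglycan, had FPKM values of 16.8, 0.43 and 0.958 at prepuberty, 1.13, 1.0 and 13.9 at puberty, and 18.3, 0.527 and 6.72 at postpuberty. LUM, a related proteoglycan, had FPKM values of 12.1, 5.71 and 6.41 at prepuberty, 6.46, 4.57 and 15.7 at puberty, and 16.6, 9.29 and 6.69 at postpuberty. DCN and FMOD were highest in the same 4 libraries as COL1A1, whereas LUM was higher in Postpuberty 2 than in Postpuberty 3. The transcription factor FOXC2 had FPKM values of 3.04, 0.228 and 0.264 at prepuberty, 0.299, 0.127 and 1.15 at puberty, and 3.17, 0.0871 and 1.07 at postpuberty, and only OGN was at 0 in any library (Puberty 2). For 10 of the 13 genes measured (76.9%, against 11.4% of all genes tested) the 4 highest libraries outside Puberty 2 were those of COL1A1. The 10 include TBX15, which did not pass the filter, whereas the 11.4% is over genes that did. LUM, OGN and ASPN were the exceptions. The part of this list in the values of the fibrillar collagens was not tested. None of the 12 genes was called by limma in any comparison.

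Some of the other lists were highest in the same libraries. The 10 mural genes summed to FPKM values of 250.3, 116 and 156 at prepuberty, 126, 109 and 208 at puberty, and 698, 105 and 194 at postpuberty, with ACTA2, the smooth muscle actin, at 233 FPKM in Postpuberty 1. The 4 highest mural sums were those of the libraries with the highest COL1A1, as were the 4 highest values outside Puberty 2 of 5 of the 10 genes. The 6 astrocyte genes summed to FPKM values of 7141, 2819 and 3766 at prepuberty, 3963, 6105 and 5209 at puberty, and 6136, 2767 and 5058 at postpuberty. Outside Puberty 2 their 4 highest sums were in those libraries too, though this held for 2 of the 6 genes taken singly, GFAP and AQP4. GFAP made up most of the sum, with 2348 to 6624 FPKM outside Puberty 2. SLC1A2 and SLC1A3 went the other way. SLC1A2 was at 23.1 to 43.5 FPKM in those libraries and at 70.1 to 76.0 FPKM in the rest outside Puberty 2. SLC1A3 was at 95.0 to 152 FPKM in those libraries and at 164 to 217 FPKM in the rest. The 11 endothelial genes stayed within 124 to 231 FPKM outside Puberty 2 and reached 729 there, of which CLDN5 made up 624. Outside Puberty 2 their 3 highest sums were in Postpuberty 1, Prepuberty 1 and Puberty 3. Choroid plexus genes, 7 of 8 measured, summed to FPKM values of 342, 13.4 and 33.7 at prepuberty, 257, 556 and 7657 at puberty, and 55.8, 39.8 and 732 at postpuberty, and TTR, the thyroxine carrier, was the largest part of it in every library, with 7594 FPKM in Puberty 3. KL, OTX2 and AQP1 were at 0 in some libraries. The 6 neuronal genes measured summed to FPKM values of 305, 1034 and 591 at prepuberty, 754, 188 and 779 at puberty, and 360.3, 826 and 726 at postpuberty. Pituitary genes, 4 of 8 past the filter, summed to 0.246 to 216 FPKM outside Puberty 2, with PRL at 199.5 FPKM in Postpuberty 1. TSHB was at 0 throughout. Oligodendrocyte genes summed to 5284 to 13154 FPKM outside Puberty 2, where Prepuberty 1, Postpuberty 1, Prepuberty 3 and Puberty 3 were highest. The part of these cell types in the members' values was not tested.

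**Figure D5:**
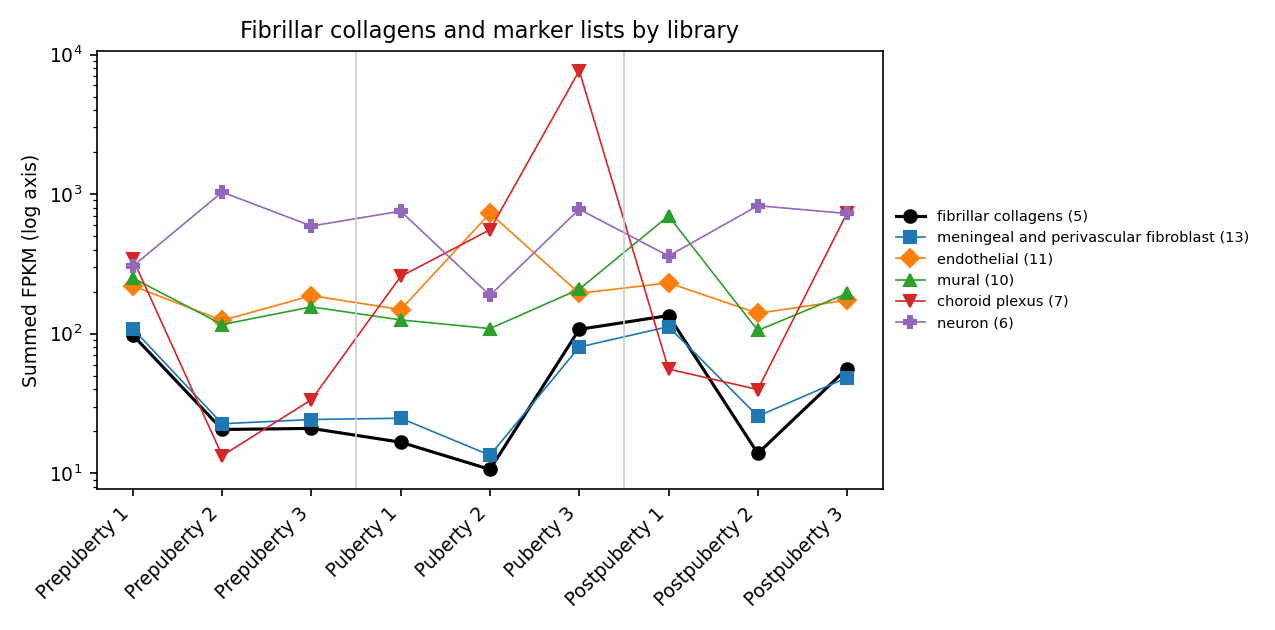
Summed FPKM (log axis) of the 5 meningeal fibrillar collagens and of 5 marker lists in each of the 9 libraries, with the number of genes measured in brackets. The fibroblast list runs from 13.5 to 112 and peaks with the collagens in Prepuberty 1, Puberty 3 and Postpuberty 1, whereas the endothelial list peaks in Puberty 2 and the choroid plexus list in Puberty 3.

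Genes that make, process, bind and degrade collagen were counted in the same fits, and limma called 0 of them in each comparison. Collagen modification and folding genes (20 of 20 past the filter), which hydroxylate and chaperone the chains, had median log2 fold changes of 0.15, -0.15 and -0.01 for prepuberty versus puberty, puberty versus postpuberty and prepuberty versus postpuberty, against 0.14, -0.19 and -0.05 for all genes. Without Puberty 2 their medians were 0.01, -0.01 and -0.01 (19 genes past the filter), against -0.02, -0.03 and -0.05 for all genes. Their summed FPKM was 249.7 to 396 outside Puberty 2, a narrower span than that of the fibrillar genes. The 4 highest of these sums were in the libraries with the highest COL1A1, as held for 6 of the 20 genes taken singly. SERPINH1, the collagen chaperone HSP47, had FPKM values of 42.7, 13.5 and 22.8 at prepuberty, 16.2, 20.8 and 32.7 at puberty, and 29.5, 16.9 and 15.4 at postpuberty. P4HA1, an alpha subunit of prolyl hydroxylase, stayed within 0.000474 to 0.0536 FPKM in the 8 libraries and was at 6.08 FPKM in Puberty 2. Procollagen cleavage and crosslinking genes (10 of 13 past the filter) had medians of -0.02, -0.21 and -0.15, and of -0.23, -0.03 and -0.15 without Puberty 2. LOXL1, a lysyl oxidase, was their most abundant gene, with 4.47 to 9.93 FPKM outside Puberty 2 and 4.36 FPKM there. The 4 highest sums of these cleavage and crosslinking genes were also in the libraries with the highest COL1A1, as held for 2 of the 13 genes taken singly.

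Other basement membrane genes (12 of 12) had medians of 0.10, -0.48 and -0.16 in the same order, and of 0.10, -0.25 and -0.16 without Puberty 2. The linkers NID1 and NID2 stayed within 2.88 to 7.73 and 1.64 to 8.87 FPKM outside Puberty 2, and HSPG2, perlecan, within 2.89 to 9.78 FPKM. Fibril-associated proteoglycans and glycoproteins (15 of 16) had medians of 0.11, -0.35 and -0.35, and of -0.17, -0.12 and -0.35 without Puberty 2. This list shares LUM, DCN, OGN, ASPN and FMOD with the fibroblast list. Its summed FPKM was 162, 44.6 and 60.2 at prepuberty, 56.2, 61.7 and 139.7 at puberty, and 195, 53.4 and 99.8 at postpuberty. Its 4 highest values were in the libraries with the highest COL1A1.

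Receptors for collagen and laminin (18 of 20) had medians of 0.10, -0.15 and -0.01, and of -0.07, 0.09 and -0.01 without Puberty 2. ITGB1, the beta subunit shared by most of these integrins, stayed within 26.9 to 52.0 FPKM outside Puberty 2 and was at 7.04 FPKM there. DAG1, dystroglycan, was within 17.1 to 29.2 FPKM and at 3.0 FPKM in Puberty 2. Matrix proteases and inhibitors (12 past the filter of 14 measured and 15 listed) had medians of -0.14, -0.07 and -0.19, and of -0.10, 0.02 and -0.19 without Puberty 2. Their 4 highest sums were in the libraries with the highest COL1A1, as held outside Puberty 2 for 5 of the 14 genes taken singly. MMP14, a membrane-bound collagenase, had FPKM values of 10.1, 2.13 and 2.04 at prepuberty, 2.81, 1.14 and 13.8 at puberty, and 13.1, 1.8 and 10.1 at postpuberty, high in the same 4 libraries as COL1A1. MMP2, a gelatinase activated by it, had FPKM values of 12.2, 5.5 and 4.41 at prepuberty, 5.88, 5.62 and 27.5 at puberty, and 16.0, 6.12 and 13.1 at postpuberty.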

How the data were processed

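Poly(A) RNA of 9 hypothalami was sequenced in pairs of reads by the authors. Per the labels and the study's methods, reads were trimmed with Trimmomatic (version 0.32 in the submitters' processing notes), aligned to ARS-UI_Ramb_v3.0 with HISAT2, and assembled, merged and quantified with StringTie. The deposited table holds FPKM for 115108 transcripts, although it is named as raw counts. Its values are not whole numbers, so no count test was used. Depth in reads is not part of this table, so no counting interval is given. The 76684 coding RefSeq rows were matched to gene symbols (2 unmatched) and summed per gene. Assembled transcripts at member loci carry no gene name in the table and were not used.

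Stages were compared with limma 3.58.1 in R 4.3.3 on log2(FPKM + 1), with a trend, 3 stages and 9 libraries in 1 fit, for 14238 genes with a mean of at least 0.5 FPKM in a stage, and p-values were adjusted by Benjamini and Hochberg over all genes. The fit was tested on simulated data. The limma p-values set a stage difference against the spread between libraries of a stage. With 1 library per ewe, differences between animals cannot be told apart from those of dissection or library. The rest was computed in Python 3.11.15 with pandas 2.3.3, scipy 1.17.1 and numpy 2.4.6, and drawn with matplotlib 3.10.9. The members and lists were chosen with earlier results of these data known. Named members are the main chains of fibrils, basement membranes and type VI collagen, the 4 smallest p-values per comparison, the 3 highest and 3 lowest in Puberty 2 against the median of the other libraries, the 5 most abundant, and those at 0 in some library but above 1 FPKM in another. Others are named as the rest of their class, and 1 member is not reported here. The correlations of the 4 planned pairs with COL1A1 were left out, as stated in the report. Alternatives covered each library left out, 2 stages alone, the replicate number as a block, a pseudocount of 0.1, no filter or a filter at 1 FPKM, upper quartile and equal-total scaling, library weights, robust variance and the top transcript alone. Noncoding RefSeq rows, and the block or equal totals without Puberty 2, were added after the data were seen.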

Additional observations from a re-analysis of the deposited data

How the results depend on the processing

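The count of collagens and laminins past the thresholds was 0 in each comparison under all 22 alternatives of the limma fit, where the smallest adjusted p of any member was 0.349 (library weights, prepuberty versus puberty). With library weights, which gave Puberty 2 a weight of 0.0653 and Prepuberty 3 one of 8.13, against 0.541 to 2.25 for the other 7 libraries, limma called 4 of all genes for prepuberty versus puberty and 1 for puberty versus postpuberty. With library weights, 4, 3 and 6 members had an unadjusted p below 0.05 in the comparisons of prepuberty with puberty, puberty with postpuberty and prepuberty with postpuberty, against 9.36%, 3.84% and 8.74% of all genes. With the replicate number as a block, 0 genes and 0 members were called in every comparison. Libraries with the same number did not deviate together (correlations of -0.31 to 0.51, median -0.08), so the numbers do not pair the animals. Equal totals moved the median log2 fold change of all genes to 0.26 for prepuberty versus puberty and -0.33 for puberty versus postpuberty.

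The number of members whose stages did not overlap depended on the processing. For prepuberty versus puberty (0) it was 1 with upper quartile scaling, 2 with the top transcript alone, and 0 to 7 with 1 library left out, the 7 of 40 without Puberty 3 (15.9% of all genes). For puberty versus postpuberty (4) it was 2 with upper quartile scaling, 2 with the top transcript alone, and 4 to 14 with 1 library left out, the 14 of 40 without Puberty 3 (20.5% of all genes). For prepuberty versus postpuberty (1) it was 3 with equal totals, 3 with the top transcript alone, and 1 to 6 with 1 library left out, the 6 of 42 without Prepuberty 1 (13.6% of all genes). Fewer libraries overlap less by construction: with a library of a compared stage left out, 9.37% to 20.5% of all genes did not overlap, against 4.04% to 8.08% with all 9.

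With 1 library left out, the log2 fold change between prepuberty and postpuberty ranged from -1.65 to 0.20 for COL1A1 and from -1.50 to 0.31 for COL1A2, lowest without Postpuberty 2 and above 0 only without Postpuberty 1. The log2 fold changes of the members with the 4 smallest p-values in each comparison kept their sign in every alternative, but some came near 0: -0.06 for COL14A1 (puberty versus postpuberty) with the top transcript alone, -0.01 for COL27A1 (prepuberty versus postpuberty) without Postpuberty 1 and 0.13 for COL11A1 (prepuberty versus puberty) without Prepuberty 3. A pseudocount of 0.1 gave larger differences for COL11A1, COL16A1, COL22A1, COL27A1, LAMA4 and LAMB1, by over 1.5 times. With 1 library left out, r ranged from 0.706 to 0.844 for COL5A1 and COL5A2, with exact p above 0.05 without Puberty 1 or Postpuberty 1. For LAMB1 and LAMC1 it ranged from -0.40 to 0.352, lowest without Postpuberty 1. For COL6A1 and COL6A2 it ranged from 0.08 to 0.525, and for COL4A1 and PDGFRB from 0.05 to 0.545. The medians of the libraries, in place of the means, were 21.0, 16.7 and 56.3 FPKM for the fibrillar sum at prepuberty, puberty and postpuberty. With 3 animals per stage, differences in the fibrillar genes below the spread between libraries of a stage were not detectable.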
